A study of Mus musculus with 6 samples.

Results

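The imprinted growth genes are 10 loci, H19, Meg3, Kcnq1ot1, Peg3, Mest, Cdkn1c, Ndn, Plagl1, Grb10 and Gnas, out of 41388 genes in the count files. They were chosen by name as imprinted genes known to influence growth. The rule uses no measured value, but the choice was made with earlier results of these data known. All 10 were matched by their Ensembl identifiers. Of these, 8 had more than 1 CPM (counts scaled to the depth of each sample) in at least 3 samples and were among the 12192 genes tested. Meg3 and Mest were not tested.

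Genomic imprinting means that a gene is read mainly from the copy inherited from the mother or mainly from the copy inherited from the father. The choice is set by DNA methylation laid down in the egg or the sperm, usually at a control region shared by a cluster of neighbouring genes. Paternally expressed genes tend to favour growth and maternally expressed genes tend to restrain it, and many of them are high in embryo and placenta and low in adult tissue. Since the mice were of an inbred strain, the reads carry no parental alleles, and the values below are total transcript levels rather than a measure of imprinting.

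RNA-seq was performed on tumor-initiating cells (TICs) and on control tumor cells, 3 samples each, freshly sorted from mammary tumors of 12-week-old female FVB/N-TgN(MMTVPyVT)634Mul/J mice. In this strain the mouse mammary tumor virus promoter drives the polyoma middle T oncogene (MMTV-PyMT) in mammary epithelium, so that all samples carry the transgene and no normal gland was compared. TICs were CD24+CD90+CD45- cells, and the control samples held the CD45- tumor cells outside the CD24+CD90+ gate, called here non-CD24+CD90+ tumor cells. Material from 4 cell sorts was pooled for each sample, and p-values therefore measure the spread between pools and not between mice. The supplement of the study gives a total of 12 mice, a number that would fit TIC and control pools from the same animals. In that case the samples of both groups are not independent, and the labels do not say which pools would belong together. The series' own design text names the control as CD24-CD90- cells, while the methods of the study describe cells negative for either or both markers.

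Total counts per sample ranged from 6781239 to 9100552, at which 3 counts correspond to 0.33 to 0.44 CPM. Of genes with 20 to 60 counts predicted from the rest of their group, 19.1% to 24.5% went undetected in a given control sample and 27.2% to 39.7% in a given TIC sample. Thy1, which encodes CD90, had mean levels of 122 CPM in TICs and 51.2 CPM in the control samples, and Cd24a had 369 and 468 CPM. Neither passed the test, with adjusted p = 0.350 and 0.985 in the exactTest of edgeR. The leukocyte gene Ptprc, which encodes CD45, had 33 counts in non-CD24+CD90+ replicate 1 and none in the other 5 samples. The summed level of 10 fibroblast markers was 7128 to 9457 CPM in TICs against 2520 to 2918 CPM in the control samples. Most of this sum came from Col1a1 (means of 4700 and 1616 CPM) and Col1a2 (2655 and 660 CPM). ExactTest called 6 of the 10 higher, beside 1.36% of all genes tested. The summed level of 10 luminal epithelial markers was 4092 to 4787 CPM in TICs against 6151 to 6535 CPM in the control samples. All 10 had a log2 fold change below 0. ExactTest and the quasi-likelihood test called 0 of them. DESeq2 called 2 lower, Krt18 and Cdh1, beside 2.51% of all genes called in either direction. In exactTest, 2 had an unadjusted p below 0.05, beside 7.85% of all genes. Both groups therefore differed in the balance of these marker genes, and the part of this balance in the levels below was not tested. In bulk samples, fewer cells of a type and less RNA per cell cannot be told apart.

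None of the 8 imprinted growth genes tested passed the threshold in the comparison of TICs with control tumor cells. The exactTest of edgeR at an adjusted p-value below 0.1 called 0 of the 8 in either direction, where it called 1.55% of all genes tested (189 of 12192). None of the 8 had an unadjusted p below 0.05, against 7.85% of all genes, and the quasi-likelihood test of edgeR and DESeq2 also called 0 of the 8, against 0.41% and 2.51% of all genes. The values of TICs and control samples overlapped for all 8, and 15.2% of all genes tested had groups that did not overlap. With only 8 genes, counts of 0 do not set the members apart from these shares of all genes. The fitted log2 fold change was above 0 for 3 and below 0 for 5, with a median of -0.16 beside -0.01 over all genes. The smallest adjusted p was 0.904, for Cdkn1c.

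**Figure D1:**
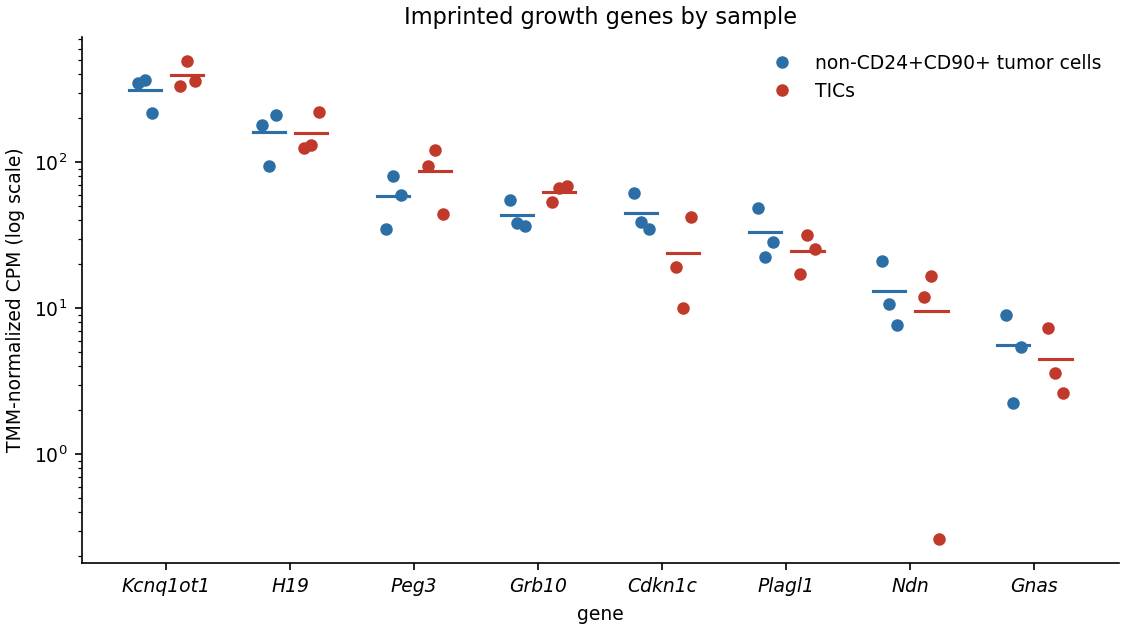
TMM-normalized CPM (log axis) of the 8 imprinted growth genes that were tested, one point per sample, with a horizontal line at the mean of each group of 3. The points of both groups overlap for every gene, and a single TIC sample of Ndn lies at 0.263 CPM.

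The first members are long noncoding RNAs. H19 is a maternally expressed RNA on chromosome 7 (GRCm38, chr7:142575529-142578143, minus strand, ENSMUSG00000000031) that shares a control region with the growth factor gene Igf2 and carries the microRNA miR-675 in an exon. H19 levels were 125, 132 and 219 CPM in TICs and 179, 94.6 and 211 CPM in the control samples. The means were 159 ± 52.4 and 161 ± 59.97 CPM (SD, n = 3 each), so that the group means nearly coincided and the lowest and the second highest value both belonged to the control samples. On the log2 scale the difference was -0.02 (SE 0.37), with a 95% interval of -0.74 to 0.70, and its sign turned to 0.01 under DESeq2 and under RLE size factors. This interval lies within a 2-fold difference in either direction, but it takes the fitted dispersion as known and may be too narrow for 3 pools per group.

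Neighbouring Igf2, the paternally expressed growth factor of the same cluster, had 60, 240 and 62 counts in TICs and 0, 50 and 0 in the control samples. Its log2 fold change of 2.90 (SE 1.69) did not pass the test, with adjusted p = 0.892. In CPM the lowest TIC sample, at 6.57, was above the highest control sample, at 5.65, a gap of less than 1 CPM.

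Mature microRNAs were not measured in these libraries of longer RNA. The annotated hairpin gene Mir675, 84 bases inside an H19 exon on the same strand, had no count of its own in any sample. Reads there also overlap H19, and how reads shared between genes were counted is not given. This 0 therefore does not measure the hairpin. The arms of miR-675 and the 2 arms of miR-335, which lies within Mest, are shown because one host was abundant and the other was near 0. Sequences are mature microRNAs from RefSeq (GRCm38.p6), with the seed, bases 2 to 8, in capitals.
mmu-miR-675-5p: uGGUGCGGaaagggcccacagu
mmu-miR-675-3p: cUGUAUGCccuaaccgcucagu
mmu-miR-335-5p: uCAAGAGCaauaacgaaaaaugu
mmu-miR-335-3p: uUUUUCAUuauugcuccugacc
The miR-675 arms are at chr7:142577112-142577133 and chr7:142577078-142577099 on the minus strand, and the miR-335 arms at chr6:30741314-30741336 and chr6:30741354-30741375 on the plus strand. In all, 7 mature microRNAs lay within H19, Meg3 or Mest on the host's strand, and their 7 seeds were all different.

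Kcnq1ot1 (chr7:143203458-143296549, minus strand, ENSMUSG00000101609) is a paternally expressed RNA that runs antisense through Kcnq1 and silences neighbouring genes of its cluster on the same chromosome, Cdkn1c among them. It had 331, 497 and 361 CPM in TICs and 348, 368 and 217 CPM in the control samples. Replicate 2 of the TICs was the highest sample and replicate 3 of the control samples the lowest, and the other 4 lay between 331 and 368 CPM. Means were 396 ± 88.3 CPM in TICs and 311 ± 82.4 CPM in the control samples (SD, n = 3 each). Its log2 fold change of 0.35 (SE 0.32, 95% interval -0.27 to 0.97) did not pass the test, with an adjusted p of 0.989 in exactTest. Kcnq1 spans the Kcnq1ot1 locus on the opposite strand. The strand setting of the counts is not given, and the part of Kcnq1 reads in these values was not tested.

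The promoter of Kcnq1ot1 is shown because it lies in the maternally methylated control region of this cluster. The 250 bases before its start in RefSeq (GRCm38.p6, chr7:143296548-143296797, minus strand) read as follows, with each CG dinucleotide in capitals.
Kcnq1ot1: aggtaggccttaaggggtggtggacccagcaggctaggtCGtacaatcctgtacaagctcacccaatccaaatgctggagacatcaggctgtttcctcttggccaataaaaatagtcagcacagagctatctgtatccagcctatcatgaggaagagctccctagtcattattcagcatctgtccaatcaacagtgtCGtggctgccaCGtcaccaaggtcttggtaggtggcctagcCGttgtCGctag
This stretch held 5 CG dinucleotides, and the window of 300 bases that adds 50 bases after the start held 9, beside a median of 7 over 32851 RefSeq promoters. DNA methylation was not measured.

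Other genes of the Kcnq1ot1 cluster were low or varied widely between pools. Kcnq1, a potassium channel gene, had 49, 17 and 30 counts in TICs and 27, 50 and 5 in the control samples, and its exons share 121 bases with Kcnq1ot1 on the opposite strand. Phlda2, a maternally expressed gene that limits placental growth, had 3 counts in TIC replicate 3 and none elsewhere, and Ascl2, a transcription factor of placenta and intestinal stem cells, had 5 and 11 counts in 2 control samples and none elsewhere. Tspan32 had no count. Cd81, which encodes a tetraspanin of the cell surface, was far higher at 176 ± 93.7 CPM in TICs and 171 ± 37.6 CPM in the control samples (SD, n = 3 each), with a log2 fold change of 0.04 (SE 0.41). Tssc4 had 58.0 ± 15.5 and 82.5 ± 29.0 CPM and Slc22a18, a transporter gene, 14.5 ± 13.4 and 17.5 ± 8.44 CPM (SD, n = 3 each), and neither passed the test.

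Meg3 (chr12:109541001-109571726, plus strand, ENSMUSG00000021268), a maternally expressed RNA of the Dlk1-Dio3 cluster with growth-restraining activity, had no count in any of the 6 samples. At these depths this allows at most 0.33 to 0.44 CPM per sample, counting error only. Since genes predicted at 20 to 60 counts were missed in single samples, a level above this floor in 1 sample is possible. The Meg3 promoter is shown because no transcript was found in either group. The 250 bases before its first start (GRCm38.p6, chr12:109540746-109540995, plus strand) held 10 CG dinucleotides, given in capitals.
Meg3: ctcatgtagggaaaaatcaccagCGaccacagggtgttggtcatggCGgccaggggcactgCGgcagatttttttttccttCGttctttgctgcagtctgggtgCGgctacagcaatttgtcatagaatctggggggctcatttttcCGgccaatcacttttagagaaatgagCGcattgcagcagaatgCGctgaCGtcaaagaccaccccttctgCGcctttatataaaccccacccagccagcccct

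The rest of the Meg3 cluster was not uniformly at 0. Dlk1, a paternally expressed transmembrane protein gene, Rtl1 and the noncoding RNA Rian had no count in any sample. Mirg, a noncoding RNA downstream of Meg3 on the same strand, had 150, 174 and 77 counts in TICs and 58, 22 and 49 in the control samples, and all 3 TIC samples were above all 3 control samples in CPM. Its log2 fold change of 1.38 (SE 1.07) did not pass the test (adjusted p = 0.983), and 7.69% of all genes tested had such non-overlapping groups with TICs higher. Dio3, which encodes the deiodinase that inactivates thyroid hormone, had 2.30 to 16.0 CPM in TICs and 2.15 to 8.58 CPM in the control samples, and the groups overlapped.

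Cdkn1c and Grb10 encode inhibitors of proliferation signals. Cdkn1c (chr7:143458339-143461050, minus strand, ENSMUSG00000037664) encodes p57Kip2, a cyclin-dependent kinase inhibitor that is maternally expressed and lies in the Kcnq1ot1 cluster. Its level was 19.3, 10.1 and 42.5 CPM in TICs and 61.6, 38.8 and 34.9 CPM in the control samples. TIC replicates 1 and 2 were below all control samples, and TIC replicate 3 was above 2 of the 3. Means were 23.9 ± 16.7 CPM in TICs and 45.1 ± 14.4 CPM in the control samples (SD, n = 3 each).

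The log2 fold change of Cdkn1c, -0.91 (SE 0.62), was farthest from 0 among the members, with a 95% interval of -2.12 to 0.29, or 0.230-fold to 1.23-fold on the linear scale. With unadjusted p = 0.146 and adjusted p = 0.904 in exactTest, it did not pass. It was -1.60 without TIC replicate 3 and -0.54 without TIC replicate 2, and was called in neither case.

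Grb10 (chr11:11930508-12038683, minus strand, ENSMUSG00000020176) encodes an adaptor that binds and inhibits the insulin and IGF1 receptors and is maternally expressed in most tissues. It had 53.2, 66.2 and 68.7 CPM in TICs and 55.1, 38.7 and 36.8 CPM in the control samples. Only the lowest TIC sample and the highest control sample overlapped, by less than 2 CPM, and the samples of Grb10 differed by at most 1.87-fold, the narrowest range of the 8 members tested. Means were 62.7 ± 8.33 and 43.5 ± 10.1 CPM (SD, n = 3 each). Grb10 had a log2 fold change of 0.53 (SE 0.43, 95% interval -0.31 to 1.37), and its adjusted p of 0.983 in exactTest did not pass the threshold.

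Genes next to Grb10 were scarce or irregular. Ddc, which encodes the decarboxylase that makes dopamine and serotonin, had 128 counts in TIC replicate 1, 6 in control replicate 3 and none in the other 4 samples. Cobl, an actin nucleator gene, had 131, 1 and 0 counts in TICs and 298, 86 and 100 in the control samples. Its log2 fold change of -2.21 (SE 1.45) did not pass the test (adjusted p = 0.926), but it was called lower when TIC replicate 1 was left out (adjusted p = 0.0073), where the 2 remaining TIC samples held 1 and 0 counts.

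Peg3 and Plagl1 encode zinc finger proteins. Peg3 (chr7:6703892-6730431, minus strand, ENSMUSG00000002265) is a paternally expressed gene with roles in apoptosis, maternal behaviour and stem cells. It had 93.7, 122 and 44.0 CPM in TICs and 34.9, 81.0 and 59.4 CPM in the control samples. The 2 highest samples were TICs, while TIC replicate 3 was below 2 of the 3 control samples. Means were 86.6 ± 39.5 and 58.5 ± 23.1 CPM (SD, n = 3 each). Its log2 fold change of 0.57 (SE 0.46, 95% interval -0.34 to 1.47) had an unadjusted p of 0.223 and an adjusted p of 0.983 in exactTest. Zim1 and Usp29, imprinted neighbours of Peg3, had no count in any sample.

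Plagl1 (chr10:13060504-13131694, plus strand, ENSMUSG00000019817) is a paternally expressed transcription factor gene that can halt the cell cycle and acts on other imprinted genes. It had 17.1, 31.8 and 25.4 CPM in TICs and 48.7, 22.5 and 28.2 CPM in the control samples, so that the groups overlapped over most of their range. The means were 24.8 ± 7.39 and 33.1 ± 13.8 CPM (SD, n = 3 each), with a log2 fold change of -0.42 (SE 0.61, 95% interval -1.62 to 0.78). Without control replicate 1, the highest sample, the log2 fold change was -0.02. Phactr2, a neighbour of Plagl1 that regulates phosphatase and actin, had 36.7 to 51.0 CPM in TICs and 17.2 to 28.8 CPM in the control samples, and its log2 fold change of 0.86 (SE 0.55) did not pass the test (adjusted p = 0.879).

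The motif GGGGCCCC, described for the Plagl1 protein and the same on both strands, was searched in the 300-base promoter windows of RefSeq. It was found in 1.078% of all 32851 windows and in 1 of the 15 windows of the 8 members with an entry, that of Peg3, where it began 201 bases before the start. The 250 bases before the Peg3 start (GRCm38.p6, chr7:6730420-6730669, minus strand) are shown with the motif in capitals, and a match of letters is not evidence of binding.
Peg3: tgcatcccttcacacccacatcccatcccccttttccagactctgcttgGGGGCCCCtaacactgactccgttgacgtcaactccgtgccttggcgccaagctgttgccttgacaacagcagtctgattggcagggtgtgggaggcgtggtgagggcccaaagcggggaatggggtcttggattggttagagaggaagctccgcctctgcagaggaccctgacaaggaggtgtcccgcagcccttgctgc
Between Peg3 and Plagl1 themselves, Pearson's r of log2 CPM over the 6 samples was -0.54, as a description.

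Ndn (chr7:62346569-62350262, plus strand, ENSMUSG00000033585) encodes necdin, a paternally expressed MAGE family protein that holds back the cell cycle in neurons and lies in the Prader-Willi cluster. Its level was 11.9, 16.7 and 0.263 CPM in TICs and 21.1, 10.7 and 7.69 CPM in the control samples. TIC replicate 3, with 2 counts, stood far below the others, and the highest and lowest samples differed 80.2-fold. From the other TIC samples 116 counts would be predicted there. In this sample 12.02% of 1481 genes predicted at 90 to 150 counts had 2 counts or fewer, beside 2.45% to 9.39% in the other 5 samples. The log2 fold change was -0.45 (SE 1.23), with a 95% interval of 0.138-fold to 3.90-fold on the linear scale, and it was 0.15 without TIC replicate 3 and 0.08 without control replicate 1, the highest sample.

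Genes around Ndn were at 0, scattered or steady. Magel2, its nearest relative in the cluster, had no count, Mkrn3 had 156 counts in TIC replicate 3 and 7 in control replicate 2, and Peg12 had counts in 1 sample of each group, 71 and 47. Ube3a, the ubiquitin ligase gene whose imprinting is known from neurons, was the steadiest imprinted gene named here, at 264 ± 21.7 CPM in TICs and 263 ± 28.6 CPM in the control samples (SD, n = 3 each). Atp10a, which encodes a lipid flippase, had 326, 142 and 95 counts in TICs and 34, 34 and 0 in the control samples. Its log2 fold change of 2.87 (SE 1.23) had an unadjusted p of 0.037 but an adjusted p of 0.560 in exactTest, and did not pass.

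Gnas (chr2:174284320-174346744, plus strand, ENSMUSG00000027523) is a complex locus whose main product, the stimulatory G protein alpha subunit, links hormone receptors to cyclic AMP. It had 67, 31 and 20 counts in TICs and 62, 20 and 38 in the control samples, or 2.63 to 7.34 CPM and 2.26 to 9.01 CPM. The log2 fold change was -0.30 (SE 1.44), with a 95% interval of -3.13 to 2.54, the widest of the 8 members. It was 0.25 without control replicate 1. Antisense exons on the opposite strand cover 22.0% of the annotated exon length of Gnas. The part of such overlap, and of the filter on uniquely mapped reads, in its low count was not tested. Nespas, the antisense transcript of the locus, had 8 counts in TIC replicate 1 and none elsewhere.

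Mest (chr6:30723547-30748465, plus strand, ENSMUSG00000051855), a paternally expressed gene for a hydrolase-like protein linked to fat cell growth, was detected in single samples only. It had 13 counts in control replicate 2, or 1.47 CPM, 2 counts in TIC replicate 3, or 0.263 CPM, and none in the other 4 samples. Copg2, which shares 912 exon bases with Mest on the opposite strand and encodes a coat protein of transport vesicles, had 21.05 ± 12.1 CPM in TICs and 15.3 ± 4.28 CPM in the control samples (SD, n = 3 each). Klf14 had 1 count in 1 sample of each group.

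Levels can be compared between genes only per exon length. On the scale of CPM per kilobase of exon, H19 was highest, with a mean of 65.1 over the 6 samples (range 38.5 to 89.2), followed by Cdkn1c at 16.9 (4.96 to 30.2). H19 and Cdkn1c did not overlap in any sample. Then came Grb10 at 5.84 (4.04 to 7.56), Peg3 at 5.44 (2.62 to 9.17), Kcnq1ot1 at 3.80 (2.33 to 5.33), Plagl1 at 3.70 (2.18 to 6.23) and Ndn at 3.09 (0.071 to 5.71), whose ranges overlapped from each to the next. Gnas at 0.451 (0.202 to 0.806) lay below the other tested members in every sample except for Ndn in TIC replicate 3, and Mest and Meg3 were at 0.073 and 0. The place of Gnas rests on counted reads, and the part of antisense overlap and of the filter on unique reads in it was not tested. Kcnq1ot1, highest in CPM, came in the fifth place on this scale, since its annotated exon covers 93092 bases.

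**Figure D2:**
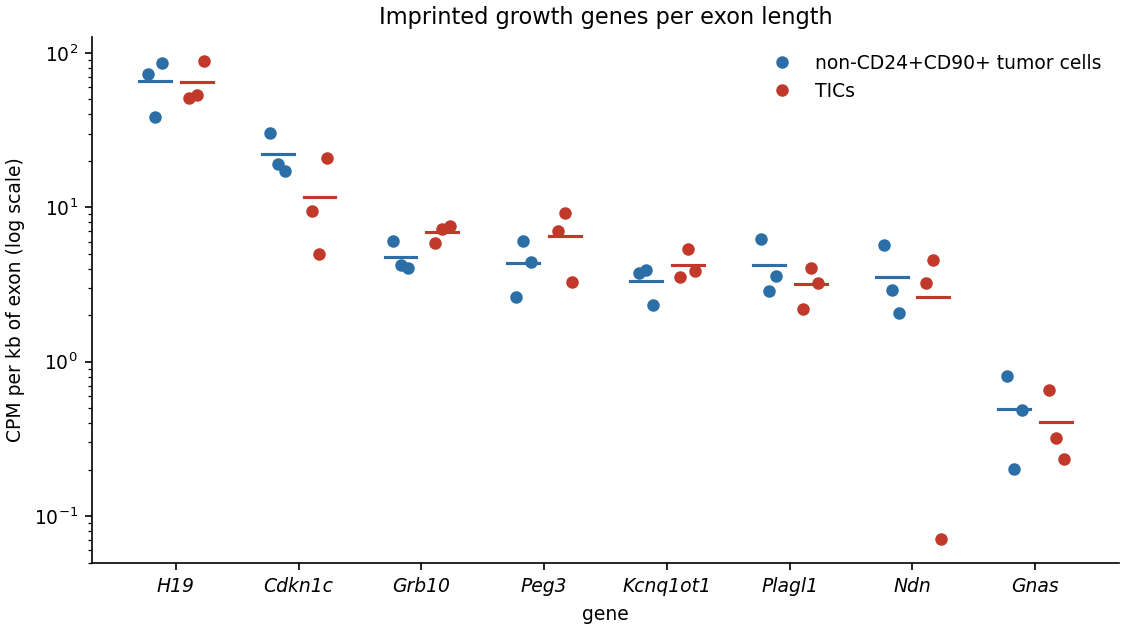
Level of the 8 tested genes as TMM-normalized CPM per kilobase of annotated exon (log axis), one point per sample, with a line at the mean of each group of 3. H19 lies between 38.5 and 89.2, above all samples of the other members, and Gnas lies between 0.202 and 0.806.

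For scale, the smallest changes that were called are given for genes of like abundance, those with a mean CPM within 1.5-fold of the member's. Around Kcnq1ot1, 26 of 498 such genes were called, the smallest with an absolute log2 fold change of 0.89, and around H19, 37 of 1141 with a smallest of 1.02. For Peg3 and Grb10 the smallest called changes were 1.13 and 1.28, and for Cdkn1c and Plagl1 they were 1.71 and 1.72. For Ndn and Gnas they were 3.03 and 6.25. These are the smallest changes among genes called in the same data, and they are not detection limits for the members. The estimates of all 8 members, none of which was called, were smaller than these values, which adds no test. The 95% interval lay within a 2-fold difference for H19 and Kcnq1ot1 alone, and for the other 6 members a difference of 2-fold in at least 1 direction lies inside the interval.

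**Figure D3:**
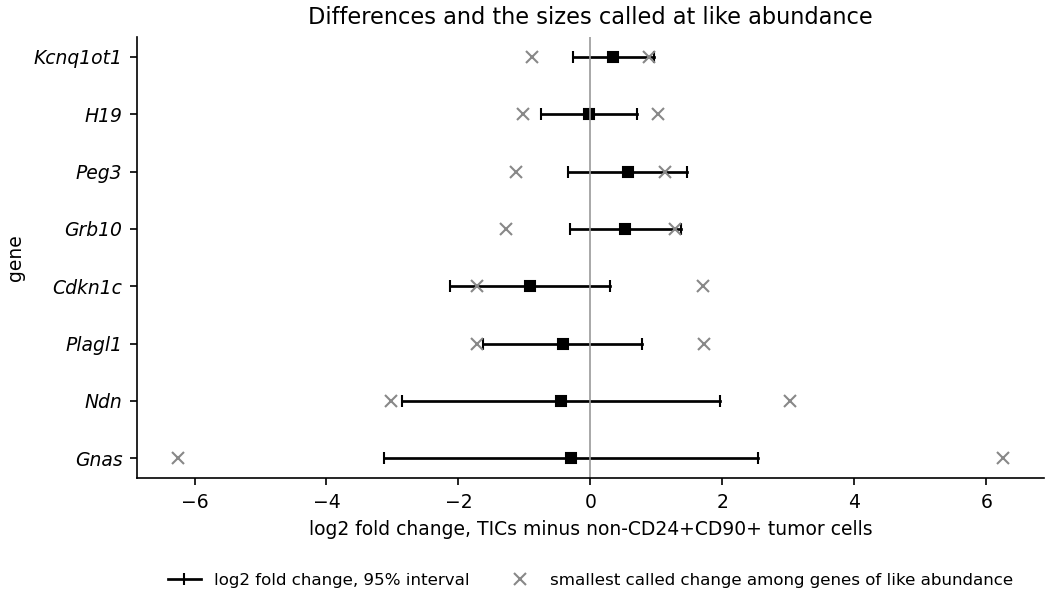
Log2 fold change, TICs minus non-CD24+CD90+ tumor cells, of the 8 tested genes (squares) with 95% intervals, and the smallest absolute log2 fold change called among genes of like abundance, drawn on both sides of 0 (crosses). All 8 intervals include 0, the narrowest for Kcnq1ot1 (-0.27 to 0.97) and the widest for Gnas (-3.13 to 2.54). Over all abundances, 166 of the 189 called genes were higher in TICs.

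Correlations among the members across the 6 samples were of mixed sign. Over the 28 pairs of tested members, Pearson's r of log2 CPM had a median of 0.10 and was positive in 15 pairs, from -0.90 between Peg3 and Cdkn1c to 0.69 between Kcnq1ot1 and Grb10. These are descriptions over points that share libraries, depth and pools, and measurement error was not separated out. For Kcnq1ot1 and Grb10, r was -0.24 without the 2 samples farthest from the median of Kcnq1ot1. Peg3 and Cdkn1c, singled out after their values were seen as the extreme of the 28 pairs, ran in opposite order in nearly every sample. The sample with the highest Peg3, TIC replicate 2, had the lowest Cdkn1c, and the sample with the lowest Peg3, control replicate 1, had the highest Cdkn1c. Within groups, after each group was centred, r was -0.91, and Spearman's rho was -0.94. Without the 2 samples farthest from the median of Peg3, r was -0.73 over 4 samples. Over all genes, 68 of 12191 had r below -0.9 with Peg3 and 53 with Cdkn1c.

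**Figure D4:**
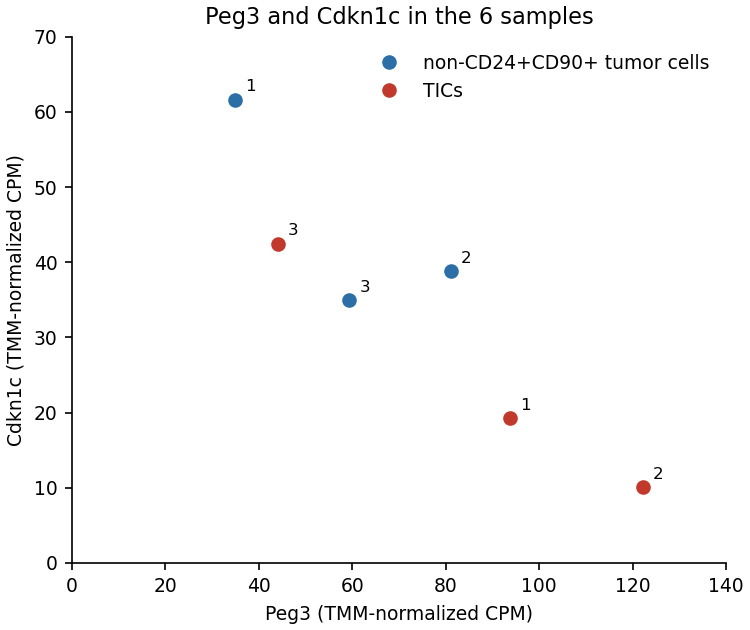
TMM-normalized CPM of Peg3 (horizontal axis) and Cdkn1c (vertical axis) in the 6 samples, numbered by replicate within each group. Samples run from control replicate 1 (34.9 CPM Peg3, 61.6 CPM Cdkn1c) to TIC replicate 2 (122 and 10.1 CPM), and both groups are spread along this line.

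Genes whose pattern was most like that of Cdkn1c over the 6 samples were Pfkfb3 (r = 0.99), Card6 (0.99) and Tmem238 (0.99), out of 158 genes with r above 0.9. Pfkfb3 encodes a regulator of glycolysis and Card6 a CARD domain protein. For Peg3 they were C3, the central complement component (0.98), Zbtb21, a zinc finger gene (0.98), and Orc1, a subunit of the origin recognition complex (0.98), out of 103. Zbtb21 and Orc1 were at 0 CPM in control replicate 1 and TIC replicate 3. Card6 was at 0.55 and 0.12 CPM in TIC replicates 1 and 2. The r of Zbtb21, Orc1 and Card6 thus rests in part on values near the floor. Neither Pfkfb3, Card6 and Tmem238 nor C3, Zbtb21 and Orc1 were called, with adjusted p from 0.840 to 1 in exactTest.

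Among a wider list of 56 other mouse imprinted genes, 52 were found in the count files, and Snrpn, Snurf, Zfp264 and Peg13 were not analysed here. Of the 52, 11 were at 0 in every sample and 28 were tested. Among these 28, 1 was called higher in TICs and 0 lower by exactTest, beside 1.36% and 0.189% of all genes tested. The count of 0 lower stood at 0 in the quasi-likelihood test and in DESeq2. At unadjusted p below 0.05 there were 2, Dcn and Atp10a, both higher in TICs, beside 7.85% of all genes. The fitted log2 fold change was above 0 for 20 and below 0 for 8, with a median of 0.25, and TIC samples lay above all control samples for 6 genes and below them for 1, beside 7.69% and 7.55% of all genes.

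Dcn was the imprinted gene called. It encodes decorin, a collagen-binding proteoglycan made by fibroblasts whose imprinting is known from placenta, and it had 729, 1611 and 1976 CPM in TICs and 575, 500 and 470 CPM in the control samples. All 3 TIC samples were above all 3 control samples, with replicate 1 nearest to them. The log2 fold change was 1.48 (SE 0.35), with adjusted p = 0.0080 in exactTest and 4.4e-05 in DESeq2. The quasi-likelihood test gave adjusted p = 0.105, and without control replicate 2 or 3 exactTest gave 0.132 or 0.124, so that the call was lost in these cases. Dcn moved with the fibroblast markers, all 10 of which had a log2 fold change above 0 and none of which was at 0 in a sample, and their part in this difference was not tested.

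**Figure D5:**
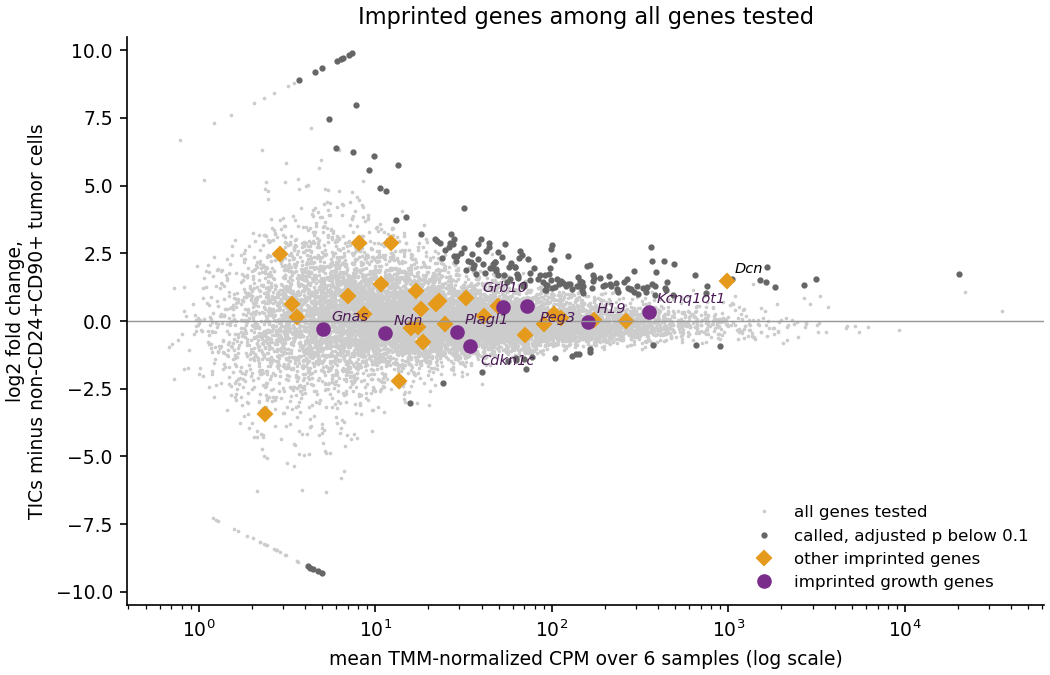
Log2 fold change, TICs minus non-CD24+CD90+ tumor cells, against mean TMM-normalized CPM over 6 samples (log axis) for 12192 genes, with called genes dark, 28 other imprinted genes as diamonds and the 8 imprinted growth genes as labelled circles. The circles lie between -0.91 and 0.57 among the genes that were not called, and Dcn at 1.48 is the one called diamond.

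For the other marker lists, the summed level of 10 pericyte or smooth muscle genes was 863 to 1338 CPM in TICs and 493 to 703 CPM in the control samples. ExactTest called 1 higher, Rgs5, beside 1.36% of all genes. Rgs5 also had the highest mean of the 10, 662 CPM in TICs and 242 CPM in the control samples. The log2 fold change was above 0 for 8 and below 0 for 2, Acta2 (-0.01) and Cnn1 (-0.05), and Myh11 was at 0.07. The summed level of 10 endothelial genes was 247 to 948 against 194 to 236 CPM, and that of 6 basal or myoepithelial genes was 376 to 594 against 451 to 997 CPM. ExactTest, the quasi-likelihood test and DESeq2 called 0 in either list, where they called 1.55%, 0.41% and 2.51% of all genes tested. In exactTest, 6 endothelial genes and 1 basal gene had an unadjusted p below 0.05, beside 7.85% of all genes. The 10 leukocyte genes summed to 33.8 to 99.7 against 25.4 to 44.0 CPM. ExactTest and DESeq2 called 1 of them higher, Lyz2, with means of 54.9 and 8.54 CPM. ExactTest called 1.36% of all genes higher. The 3 other leukocyte genes tested had log2 fold changes below 0, Cd68 (-0.31), Csf1r (-1.68) and Cd52 (-0.20), and none of these 3 was called. The quasi-likelihood test did not call Lyz2 (adjusted p = 0.138). Of the 10 leukocyte genes, 3 were at 0 in all samples, the T cell marker Cd3e and the macrophage marker Adgre1 among them. Others had counts, such as Cd68 (485 in all over the 6 samples), Cd52 (276), Csf1r (158) and Itgam (67, in TICs only). Of 6 adipocyte genes, 5 were at 0 in all samples.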

How the data were processed

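RNA from 3 pools of TICs and 3 pools of non-CD24+CD90+ tumor cells was sequenced. The authors trimmed the reads with Trimmomatic version 0.32, aligned them to GRCm38 with STAR version 2.4.0, kept uniquely mapped reads with SAMtools version 1.1 and counted them per Ensembl gene with HTSeq, and they deposited these raw counts. The annotation release and the strand setting are not given in the sources used here. Reads of sequences with near-identical copies are lost by the filter on unique mapping.

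From the counts on, a gene was tested if at least 3 of the 6 samples exceeded 1 CPM (12192 genes). TMM factors, common and tagwise dispersions (common dispersion 0.678, a biological coefficient of variation of 0.82) and exactTest came from edgeR version 4.0.16 under R version 4.3.3, following the methods of the study, whose CPM threshold is not stated. P-values were adjusted after Benjamini and Hochberg over all genes tested, with a threshold of 0.1. Standard errors came from the negative binomial fit, and 95% intervals are 1.96 SE wide on each side. Correlations used log2 CPM with a prior count of 2. ExactTest and the quasi-likelihood test were also run on independent counts simulated from the fitted dispersions. DESeq2, the intervals, the correlations and a sharing of mice between groups were not covered by this. Names, coordinates and exon lengths came from GENCODE M21.

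Replicates were numbered in accession order and not paired. The alternatives were the quasi-likelihood test, DESeq2 version 1.42.0, RLE factors, library size alone, other filters and leaving out each sample. The members and lists were chosen with earlier results of these data known. Genes named were all members, listed imprinted genes of the same cluster, those called, the 3 most abundant of the list (Dcn, Ube3a and Cd81), the sorting markers, and for the 2 members with the smallest p the 3 genes most correlated with each. Single cell type markers were named after their values were seen.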

Additional observations from a re-analysis of the deposited data

How the results depend on the processing

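No member was called under any of the 12 alternatives, and the smallest adjusted p of a member was 0.401, for Cdkn1c without TIC replicate 3. Kcnq1ot1, Peg3, Cdkn1c, Plagl1 and Grb10 kept the sign of their log2 fold change throughout. The sign of H19 turned, to 0.0102 under DESeq2 and under RLE size factors and to 0.00566 with the filter at 5 CPM, and to as far as 0.22 with 1 sample left out (range -0.31 to 0.22). With 1 sample left out, Ndn ranged from -1.11 to 0.15 and Gnas from -0.81 to 0.25. The median over the tested members then ranged from -0.43 to 0.16. Genes called among all tested numbered 50 in the quasi-likelihood test, 306 in DESeq2, 112 without the filter, and 72 to 323 with 1 sample left out, fewest without control replicate 3 and most without TIC replicate 1. Other imprinted genes called higher numbered 0 in the quasi-likelihood test and 0 to 1 with 1 sample left out, and those called lower 0 to 1. The cause of these changes was not tested. No scaling moved the median of all genes by over 0.1. No paired analysis was possible because the labels give no replicate numbers shared between the groups, although both groups' pools may share mice. Gnas, Ndn, Mest and Meg3 had the fewest counts among the members, and the part of depth in this was not tested.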
